A study of Drosophila melanogaster with 6 samples.

Results

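RNA was measured in Drosophila melanogaster larval brain cells sorted as T4/T5 neurons, the motion-detecting cells of the optic lobe. The genes described here encode the proteins that build, bind, cut and travel along microtubules. They were chosen by the function of their products (tubulins, microtubule-associated proteins, kinesins, dynein and dynactin) with the measured fold changes between Drgx knockdown and control in these same libraries already known, and Jupiter was included with its fold change in view. Their values in that comparison are therefore a description and not independent evidence. The list holds 39 genes, of which 38 were matched to a row among the 23932 features of the count table and all 38 had at least 1 count. The expression filter kept 37 of them, among 9932 features tested in all. betaTub60D was not matched by its current identifier and is not analysed here. It may be present under an older identifier, which was not searched for. alphaTub85E, an alpha-tubulin found in testis and muscle, fell below the filter with 1 count over all control libraries and 4 over all knockdown libraries.

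Microtubules are hollow polymers of alpha- and beta-tubulin dimers with a fast-growing plus end and a minus end. In axons they form tracks along which kinesins, most of which walk to the plus end, and cytoplasmic dynein, which walks to the minus end, carry vesicles, mitochondria and RNA. Microtubule-associated proteins bind the lattice or its ends and set how stable the tracks are and which motors use them, while severing enzymes cut them. A growing neuron makes many of these proteins while its axon and dendrites extend.

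RNA was sequenced from GFP-positive cells sorted from dissociated brains of climbing or wandering late larvae raised at 25 °C, with 3 libraries per group made by SMART-Seq v4. All larvae carried 1 copy each of the membrane reporter UAS-CD8-GFP and of the driver R23G12-Gal4. In control larvae the hairpin UAS-cherry-IR, against a fluorescent protein gene, lay opposite the driver and the reporter lay over a + chromosome. In knockdown larvae the hairpin UAS-DRGX-IR, against the homeobox transcription factor gene Drgx, lay opposite the reporter and the driver lay over a + chromosome. The hairpins thus lay on different chromosomes, so the target and the place of the transgene cannot be told apart. The activity of R23G12-Gal4 set which cells were labelled for sorting, and the purity of the sorted cells was not tested here. Each target was represented by a single genotype. The sources used here do not say how many brains went into a library or whether replicates came from separate crosses, so p-values measure the spread between these libraries, which may be partly technical. In such bulk samples, fewer cells of a type and less RNA per cell cannot be told apart.

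Library totals ran from 29587960 to 44054609 counts, and a count of 0 in a library allows a level of up to 3 counts, or 0.069 to 0.102 CPM (a feature's share of its library's counts, scaled to a common total), for counting error only. Drgx itself was at 2142 ± 27.6 CPM in control and 707 ± 37.8 CPM in knockdown (SD, n = 3 each), and its fitted log2 fold change was −1.60. All levels are CPM scaled with trimmed mean of M-values (TMM) factors unless they are given per kilobase, and each ± is an SD over 3 libraries. A gene is called changed at an adjusted p under 0.05 in edgeR's quasi-likelihood F test over all tested features. In knockdown replicate 2, 325 tested features had no count, against 118 to 171 in the other libraries.

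Of the 37 tested genes, 3 changed after Drgx knockdown, and all 3 encode proteins that bind along microtubules. They were 3 of the 8 members grouped as microtubule-associated proteins, and the rest of that group was not called. Jupiter rose, while tau and futsch fell. Among the members, no tubulin, end-binding protein, severing enzyme, kinesin, dynein or dynactin gene passed the threshold in edgeR. DESeq2 and limma-voom each called the same 3 genes and, as the only further member, Dhc64C. The 3 calls are 8.11% of the tested members, beside 6.21% of all tested features. By direction, 1 member was higher, against a background of 2.1% of features, and 2 were lower, against 4.11%. An unadjusted p under 0.05 was reached by 10 members (27%) and by 16.4% of all features. In 8 members (21.6%) the 3 knockdown libraries lay wholly above or below the 3 control libraries, against 23.3% of all features. Since the members were chosen with this comparison known, nothing is read from these shares. The counts by role below have the same background, 6.21% called and 16.4% at an unadjusted p under 0.05. Nothing is read from them either. The median log2 fold change of the tested members was −0.02, and the median size of change, sign ignored, was 0.0745, against 0.209 over all features. Members were also more abundant than most features, with a median level of 172 CPM against 19.0 CPM, and the median standard error of their log2 fold changes was 0.101 against 0.192. Among the 3157 features with a mean of at least 50 CPM the median size of change was 0.1.

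**Figure D1:**
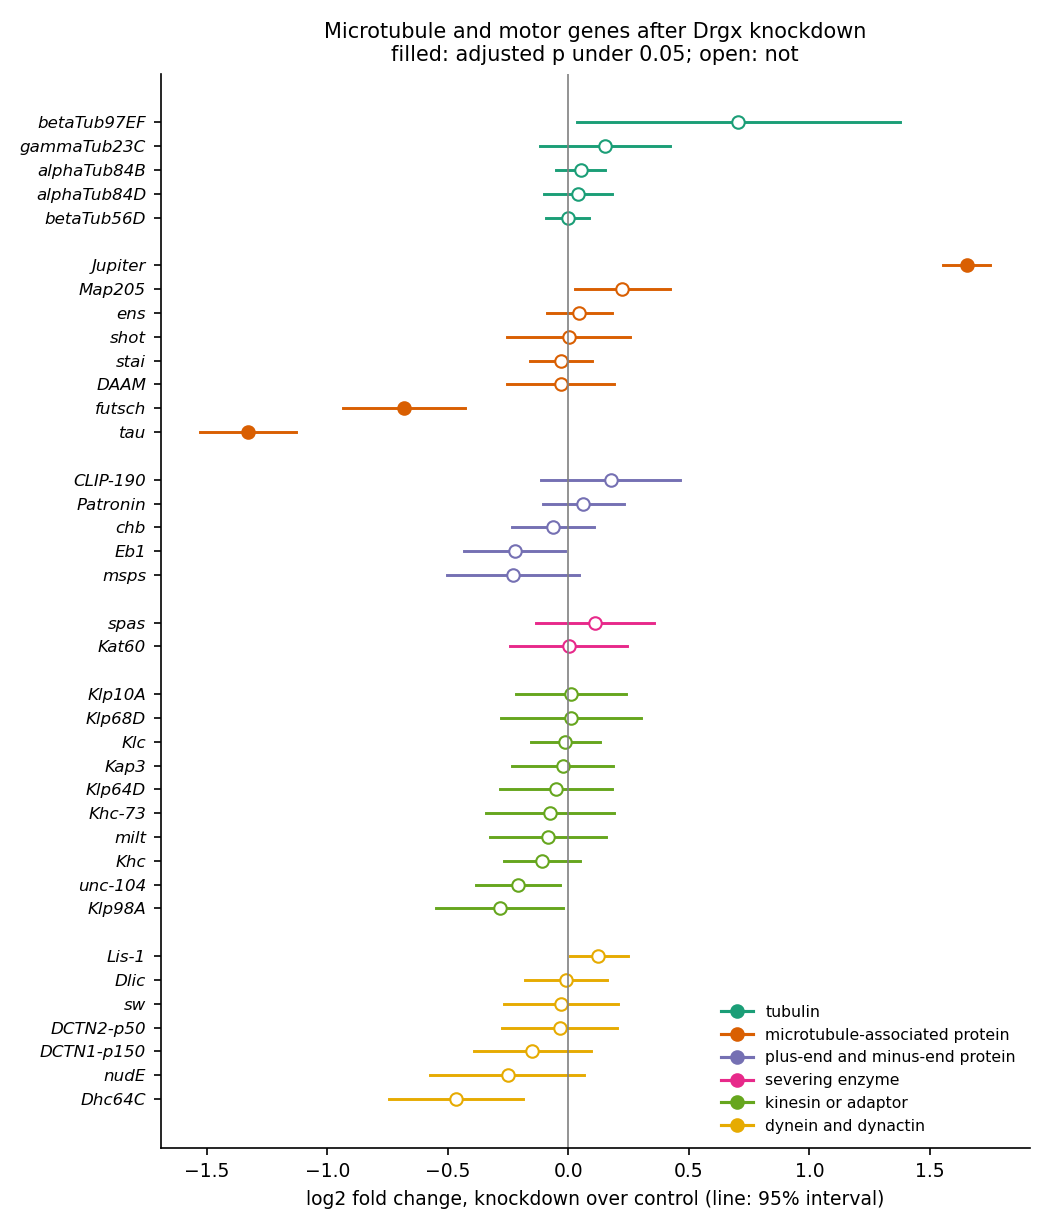
Log2 fold change (knockdown over control, horizontal axis) of the 37 tested genes, 1 row per gene, coloured by role, with lines for the 95% interval; filled points have an adjusted p under 0.05. Jupiter at 1.65, tau at −1.33 and futsch at −0.68 are the 3 filled points, and the other genes lie between −0.47 and 0.71.

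Jupiter encodes a microtubule-binding protein found along microtubules through the cell cycle in fly embryos and in neurons. The control libraries held it at 722.6, 735.5 and 733.0 CPM, and the knockdown libraries at 2309, 2223 and 2352 CPM. The lowest knockdown library lay far above the highest control library. The means were 730.4 ± 6.85 and 2295 ± 65.7 CPM, a 3.14-fold difference with a fitted log2 fold change of 1.65 (SE 0.0439, 95% interval 1.55 to 1.75, edgeR adjusted p = 2.8e-08). Per kilobase of annotated exon, Jupiter went from 290 to 910 CPM per kb, which moved it from rank 133 to rank 29 among 8538 tested protein-coding genes. Its gain in mean level, 1564 CPM, was the largest among those 8538 genes, a rank read after its values were seen. The fitted log2 fold change stayed between 1.63 and 1.68 over 13 other settings of the analysis. Jupiter (FBgn0051363) lies on the minus strand of chromosome 3R at 11590386 to 11619906 (BDGP6.54) and shares no exon base with another annotated gene. The closest tested protein-coding genes on each side did not pass the threshold: CG6791 had a log2 fold change of −0.12 (adjusted p = 0.624) and CG14710 one of −0.09 (adjusted p = 0.861).

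tau is the fly homolog of the human tau protein, an axonal microtubule-binding protein. It stood at 283.3, 272.9 and 295.8 CPM in control and at 99.68, 117.2 and 122.4 CPM in knockdown. Every knockdown library was below every control library, and the group ranges were well apart. The mean fell from 284.0 ± 11.5 to 113.1 ± 11.9 CPM, which is 39.8% of the control level, with a log2 fold change of −1.33 (SE 0.0887, 95% interval −1.53 to −1.13, edgeR adjusted p = 9.58e-06). tau (FBgn0266579) occupies 27639886 to 27656996 on the minus strand of 3R. Its exons share 90 bases with the microRNA gene mir-1001. The tested gene nested in its span, RpS10a, was under 1 CPM in both groups and did not pass the threshold (adjusted p = 0.506), and neither did the flanking gene Mtl (log2 fold change 0.08, adjusted p = 0.82).

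futsch is the fly homolog of MAP1B and is best known for shaping microtubule loops at the larval neuromuscular junction. Its control libraries were at 187.6, 204.2 and 214.1 CPM and its knockdown libraries at 105.8, 145.2 and 126.8 CPM. The groups did not overlap, but the knockdown libraries were more spread than those of tau. The mean fell from 202.0 ± 13.4 to 125.9 ± 19.7 CPM, or 62.3% of control, with a log2 fold change of −0.68 (SE 0.113, 95% interval −0.94 to −0.43, edgeR adjusted p = 0.00491). futsch (FBgn0259108) lies on the plus strand of the X chromosome at 1409069 to 1453686, and its exons share 1186 bases with Gr2a. Both genes are on the same strand, and how the counting treated reads in that stretch is not given in the sources used here.

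**Figure D2:**
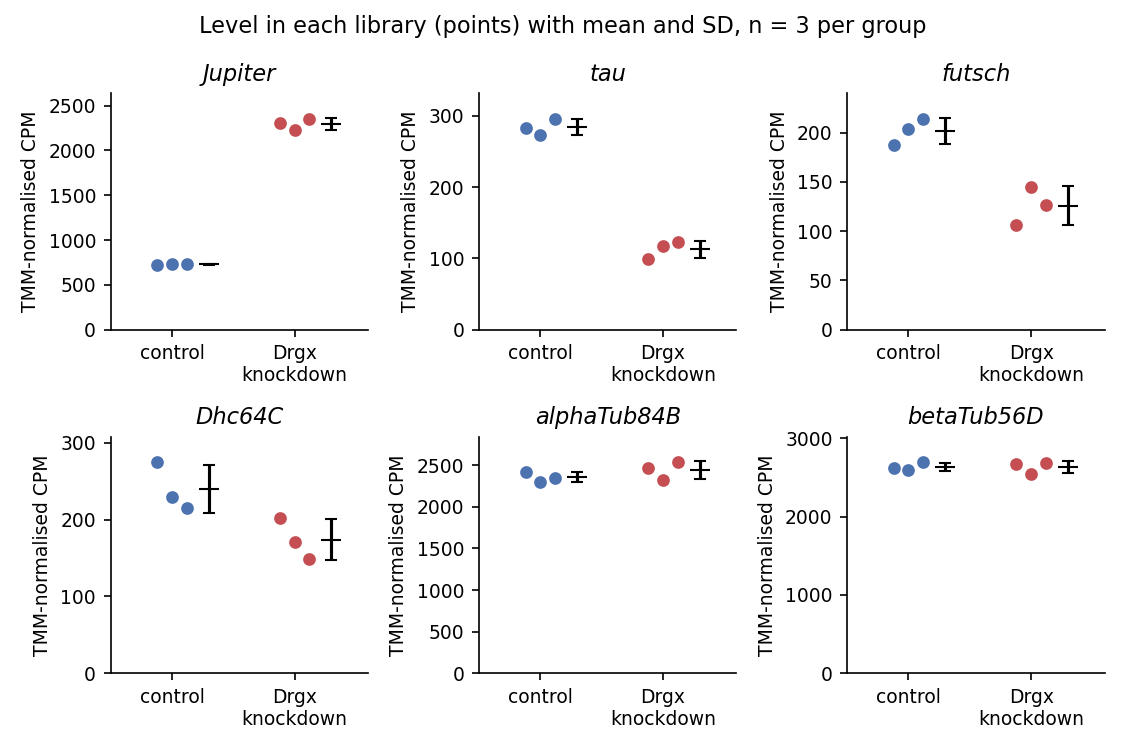
Level (TMM-normalised CPM, vertical axis from 0) of 6 genes in each library, with points for libraries and bars for the mean and SD (n = 3 per group). Jupiter is higher and tau, futsch and Dhc64C are lower in all 3 knockdown libraries, while the groups overlap for alphaTub84B and betaTub56D.

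With Jupiter higher and tau and futsch lower, the proportions among these lattice-binding genes differed between the groups. Per kilobase, Jupiter was 7.4 ± 0.318 times tau in control and 58.8 ± 6.78 times tau in knockdown. The ratio of Jupiter to futsch went from 33.5 to 172. Relative to alphaTub84B, the main alpha-tubulin gene, Jupiter went from 0.215 ± 0.00728 to 0.653 ± 0.0103. These ratios restate the 3 changes on a per-length scale and were not tested separately.

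Other neuronal genes also moved in these libraries. As background for the marker counts below, edgeR called 6.21% of all tested features, and 16.4% had an unadjusted p under 0.05. Among features with a mean of at least 50 CPM these shares were 10.4% and 23.3%. The marker lists were chosen with earlier results known, so their counts are a description. Of 8 neuronal markers, all tested, 4 fell. These were brp, an active zone scaffold (log2 fold change −0.78), and nSyb, the synaptic vesicle v-SNARE (−0.48). The others were Syt1, a calcium sensor for release (−0.46), and cpx, a SNARE regulator (−0.26). The call of Syt1 was lost without control replicate 2, and cpx kept its call in only 1 of 6 such fits, that without knockdown replicate 2 (adjusted p up to 0.152). With all 6 libraries cpx also lost its call with scaling by library size alone (adjusted p = 0.0722). At an unadjusted p under 0.05, 6 of the 8 were lower and 0 higher, and DESeq2 and limma-voom also called Syx1A (−0.25). The RNA-binding protein gene elav, the most abundant of the list, was at 1026 CPM in control and 1010 CPM in knockdown (−0.02). The summed level of the neuronal markers was 3127 to 3198 CPM in control and 2651 to 2804 CPM in knockdown. Of 9 markers of the T4/T5 lineage, all tested, 4 transcription factor genes fell: bi (−0.44), dac (−0.88), SoxN (−0.60) and Sox102F (−2.05). Of the same list, acj6 (0.22, adjusted p = 0.071) and fd59A (0.99, adjusted p = 0.177) were higher at an unadjusted p under 0.05 without passing in edgeR, and DESeq2 and limma-voom also called acj6. The sum of the 9 went from 4995 to 5284 CPM in control to 3337 to 3503 CPM in knockdown. Of 8 tested glial markers, nrv2 (0.38) and Gs2 (0.75) rose, 6 were higher and 0 lower at an unadjusted p under 0.05, and the median log2 fold change was 0.47. DESeq2 also called gcm (0.75) and wrapper (0.69). The glial sum was 601.2 to 677.1 CPM in control and 814.1 to 880.6 CPM in knockdown, and the glial transcription factor gene repo was at 9.74 and 9.82 CPM. Gs2 lost its call without control replicate 1 or 3 or knockdown replicate 1, with adjusted p up to 0.0578. Progenitor and cell cycle markers had 0 of 14 called by edgeR (4 at an unadjusted p under 0.05; DESeq2 called stg, the most abundant, and limma-voom 0), with sums of 516.6 to 565.2 CPM in control and 567.6 to 605.9 CPM in knockdown. Hemocyte markers summed to 0.261 to 2.69 CPM in control and 2.76 to 5.43 CPM in knockdown, with He, NimC1, srp and eater at 0. Of 2 tested, 1 was called, Ppn, at 0.14 ± 0.115 CPM in control and 3.33 ± 0.554 CPM in knockdown. The control level of Ppn lay near the limit for a count of 0. It passed the expression filter only through the knockdown libraries, so nothing is read from its call. Photoreceptor markers ninaE and trp were at 0 and norpA, the most abundant, was at 120.7 and 120.1 CPM, with 0 of 5 tested called by edgeR, DESeq2 or limma-voom (0 at an unadjusted p under 0.05) and sums of 120.7 to 125.7 CPM in control and 110.4 to 134.3 CPM in knockdown. Muscle markers summed to 4.93 to 6.76 CPM in control and 5.64 to 7.87 CPM in knockdown, with 0 of 2 tested called by any of these tools (0 at an unadjusted p under 0.05), the most abundant tested being Mlc2 at 3.35 and 2.48 CPM. The part of these marker differences in the changes of Jupiter, tau and futsch was not tested.

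The other lattice-binding and regulatory genes did not pass the threshold. Map205, which encodes a fly microtubule-binding protein that also binds Polo kinase, was at 796.4, 701.6 and 697.6 CPM in control and 964.2, 764.8 and 835.0 CPM in knockdown, and the groups overlapped (log2 fold change 0.22, edgeR adjusted p = 0.227). stai, the stathmin that sequesters tubulin dimers, had means of 552.1 ± 23.4 and 540.7 ± 21.0 CPM (−0.03). ens, the MAP7 homolog that recruits kinesin-1, had 320.5 ± 14 and 330.6 ± 3.98 CPM. Both of these genes had 95% intervals of the log2 fold change within −0.16 and 0.18. The spectraplakin shot, which links actin to microtubules, was at 324.5 ± 58.8 and 324.8 ± 15.7 CPM, with control libraries from 278.0 to 390.5 CPM. The formin DAAM, an actin nucleator that also acts on axonal microtubules, had 207.3 ± 16.4 and 202.7 ± 23.5 CPM.

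The tubulins themselves gave no call in either direction, with 0 of 5 tested passing in edgeR and 1 at an unadjusted p under 0.05. alphaTub84B was at 2417, 2300 and 2353 CPM in control and 2463, 2323 and 2536 CPM in knockdown. The groups overlapped, and the 95% interval of the log2 fold change, −0.05 to 0.15, held changes from 96.6% to 111% of control. betaTub56D, the main beta-tubulin gene, was at 2619, 2594 and 2695 CPM in control and 2667, 2542 and 2685 CPM in knockdown, with an interval from 93.8% to 106% of control. These were the most abundant members in both groups, at ranks 16 and 18 per kilobase among the 8538 protein-coding genes in control. alphaTub84D was at 222.3 ± 7.35 and 228.6 ± 2.33 CPM. The coding sequences of alphaTub84B and alphaTub84D are nearly identical, so how the counting split reads between them is uncertain. As counted, alphaTub84B held 92.23 ± 0.284% of the per-length alpha-tubulin signal of 5 genes in control and 92.24 ± 0.382% in knockdown. betaTub56D held 99.41 ± 0.103% and 99.24 ± 0.142% of the signal of the 4 beta-tubulin genes matched here, which leave out betaTub60D.

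betaTub97EF, a beta-tubulin used in fly gut and other tissues, was the least abundant tested member. It was at 2.684, 4.047 and 4.006 CPM in control and 6.05, 6.267 and 5.215 CPM in knockdown. All knockdown libraries were above all control libraries, but the test did not pass (log2 fold change 0.71, 95% interval 0.03 to 1.38, edgeR adjusted p = 0.274). gammaTub23C, the somatic gamma-tubulin that nucleates microtubules, was at 51.75 ± 0.897 and 57.51 ± 7.62 CPM (0.15, adjusted p = 0.636).

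Among genes for proteins at microtubule ends, 0 of 5 were called by edgeR and 1 had an unadjusted p under 0.05. That gene was Eb1, whose product tracks growing plus ends, at 266.5, 234.4 and 271.4 CPM in control and 239.9, 194.7 and 226.9 CPM in knockdown. The ranges overlapped slightly (log2 fold change −0.22, adjusted p = 0.264). The polymerase gene msps had 86.32 ± 7.3 and 73.63 ± 10.8 CPM (−0.23, adjusted p = 0.418). chb, the CLASP that stabilises plus ends, had 138.3 ± 7.79 and 132.3 ± 0.826 CPM, and CLIP-190, a plus-end protein related to CLIP, had 43.91 ± 2.71 and 49.57 ± 6.73 CPM. Patronin, which protects minus ends, had 155.6 ± 7.96 and 162.4 ± 7.52 CPM. The severing enzymes spastin (spas; 61.19 ± 4.99 and 66.13 ± 5.16 CPM) and katanin (Kat60; 70.76 ± 4.24 and 70.8 ± 7.23 CPM) did not differ beyond the spread of the libraries. Both overlap genes on the opposite strand: spas shares 633 exon bases with Miro and Kat60 shares 203 with Vps37B.

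The kinesins and the adaptor milt were called in 0 of 10 cases by edgeR, with 2 at an unadjusted p under 0.05, unc-104 and Klp98A. unc-104 carries synaptic vesicle precursors along axons. It was at 320.1, 326.0 and 311.4 CPM in control and 283.6, 247.0 and 297.6 CPM in knockdown. All knockdown libraries were lower, with a log2 fold change of −0.21 (95% interval −0.38 to −0.04, adjusted p = 0.194). Klp98A, an endosomal kinesin, was at 59.17, 47.87 and 56.98 CPM in control and 43.09, 44.14 and 47.39 CPM in knockdown (−0.28, adjusted p = 0.259), and its groups did not overlap either. Both heavy and light chains of kinesin-1, the main anterograde motor, were close to control, with Khc at 271.8 ± 8.78 and 251.7 ± 16.4 CPM and Klc at 296.0 ± 6.06 and 293.6 ± 14.4 CPM.

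Kinesin-2, which moves along axons and cilia, has the motor chains Klp64D and Klp68D and the accessory chain Kap3. Their levels were 74.37 ± 3.72 and 71.82 ± 6.82 CPM for Klp64D, 85.76 ± 14.7 and 86.39 ± 6.61 CPM for Klp68D, and 173.8 ± 21.4 and 171.0 ± 5.36 CPM for Kap3. Klp64D relative to Klp68D was 1.05 per kilobase in control and 0.994 in knockdown. Khc-73, a kinesin-3 motor, was at 318.0 ± 33.4 and 302.0 ± 47.4 CPM, Klp10A, a kinesin that depolymerises microtubule ends, at 133.9 ± 2.0 and 134.9 ± 17.9 CPM, and milt, the adaptor that ties mitochondria to kinesin-1, at 141.1 ± 5.26 and 133.3 ± 19.8 CPM. Klc shares 155 exon bases with CG32109 and Kap3 shares 212 with CG34348, both on the opposite strand. On the same strand, unc-104 shares 168 exon bases with CG42392 and milt shares 56 with Caper.

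The dynein and dynactin genes were called in 0 of 7 cases by edgeR, with 2 at an unadjusted p under 0.05. The first was Dhc64C, the heavy chain that holds the motor domain. It was at 274.7, 229.7 and 215.8 CPM in control and 201.9, 170.4 and 148.8 CPM in knockdown. All 3 knockdown libraries were lower than all 3 control libraries, the means being 240.1 ± 30.7 and 173.7 ± 26.7 CPM. The log2 fold change was −0.47 (SE 0.124, 95% interval −0.74 to −0.19), with an edgeR adjusted p of 0.0596. Over 13 other settings the adjusted p ran from 0.00328 to 0.198 and passed in 6, among them DESeq2, limma-voom and the fit without knockdown replicate 1 (−0.59, adjusted p = 0.0263), so the call depends on the setting. Dhc64C shares 39 exon bases with CG18808.

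The second was Lis-1, a dynein regulator that steadies the motor on microtubules. It stood at 592.9, 639.1 and 644.6 CPM in control and 690.2, 671.1 and 685.5 CPM in knockdown. All knockdown libraries were higher, but the difference was small (log2 fold change 0.13, 95% interval 0.01 to 0.25, adjusted p = 0.282). The other chains stayed near control, with Dlic, the light intermediate chain, at 313.4 ± 13.1 and 311.5 ± 27.2 CPM. The ratio of Dlic to Dhc64C per kilobase was 5.07 ± 0.812 in control and 7.04 ± 1.66 in knockdown. sw, the intermediate chain, had 61.38 ± 3.29 and 60.05 ± 4.97 CPM. Its near copies, the Sdic genes, had no count or almost none, and how reads were split among them is uncertain. The dynactin genes DCTN1-p150 (84.36 ± 9.86 and 75.99 ± 4.42 CPM) and DCTN2-p50 (92.72 ± 11.9 and 90.46 ± 3.18 CPM), which couple dynein to cargo, and nudE, a Lis-1 partner (122.9 ± 9.62 and 103.2 ± 21.8 CPM), did not pass either.

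Of the 34 members that were not called, 14 had higher point values and 20 lower ones. The 95% interval of the log2 fold change lay within 0.5 of 0 for 29 of them and within 1 for 33, betaTub97EF being the exception. For most of these genes the data thus limit any change to less than that size, which does not show that they were unchanged. Summed over the matched members, the level was 12840 ± 183 CPM in control and 14190 ± 443 CPM in knockdown, and without Jupiter it was 12110 ± 190 and 11900 ± 380 CPM.

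**Figure D3:**
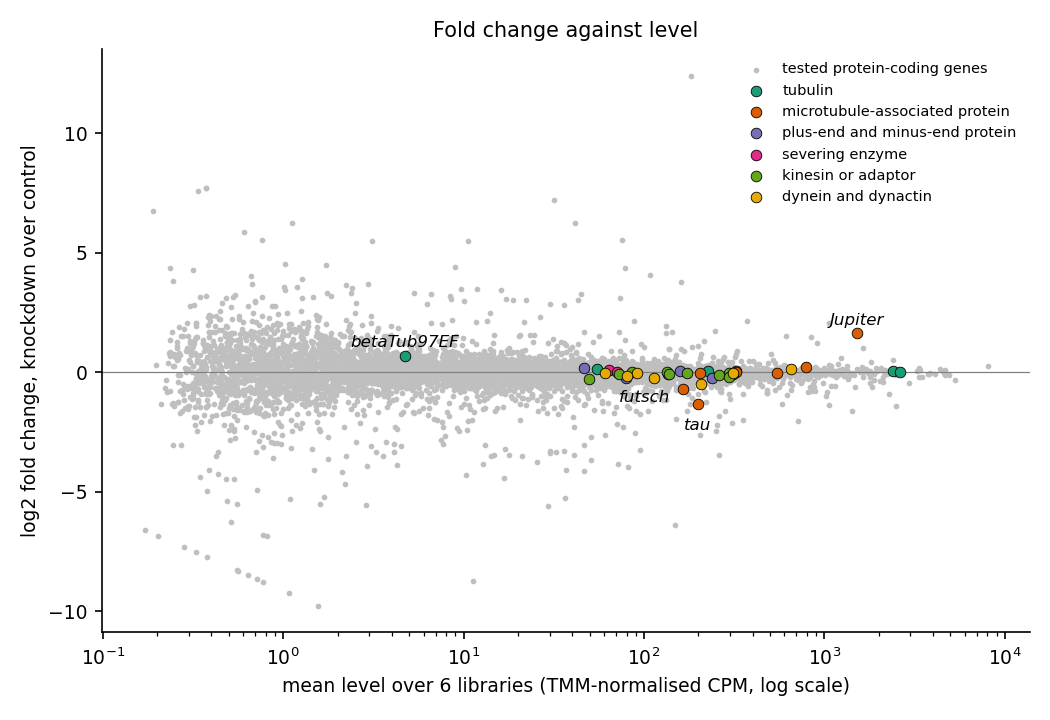
Log2 fold change (vertical axis) against mean level over the 6 libraries (TMM-normalised CPM, log axis) for tested protein-coding genes in grey and the 37 members in the colours of their roles. Jupiter stands above, and tau and futsch below, the other members, which lie between Dhc64C at −0.47 and betaTub97EF at 0.71.

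Per kilobase of exon, the order of levels in control began with betaTub56D at 1410 and alphaTub84B at 1340 CPM per kb, followed by Jupiter at 290, Lis-1 at 181, stai at 146 and Klc at 143. Long genes stood low on this scale, with futsch at 8.67 and CLIP-190 at 5.21 CPM per kb, and betaTub97EF was last at 1.91. In knockdown, Jupiter was still the third, but at 910 CPM per kb it lay closer to the tubulins, and tau moved from rank 1862 to rank 3834 among the 8538 protein-coding genes.

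**Figure D4:**
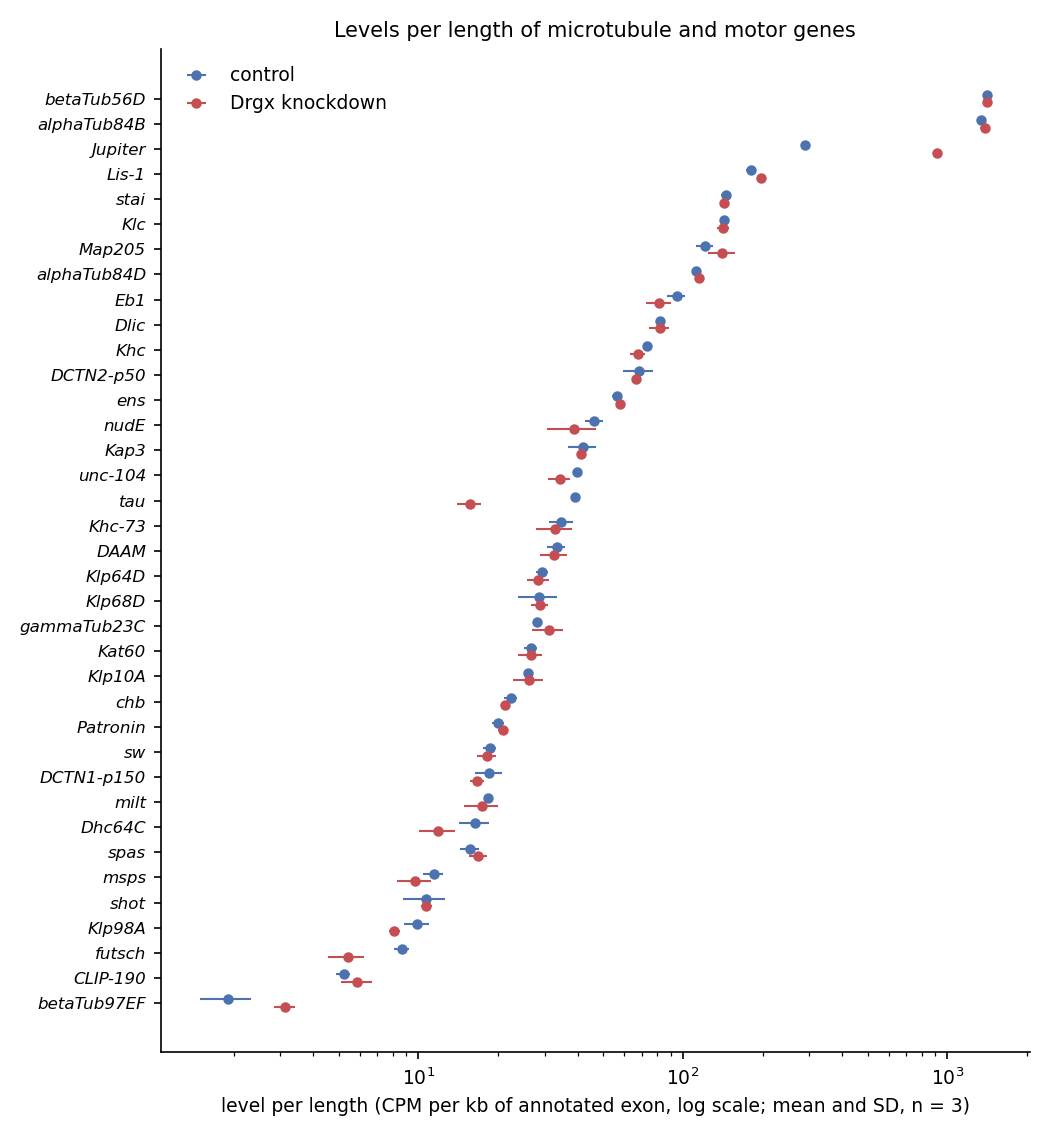
Level per length (CPM per kb of annotated exon, log axis; mean and SD, n = 3) of the 37 tested genes in control and knockdown, ordered by the control level. Jupiter (290 and 910) and tau show the widest gaps between the 2 groups, and the tubulins betaTub56D and alphaTub84B stand highest.

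Further microtubule genes were listed with these results known. Of 140 listed, 137 were matched, 112 were tested and 5 were called (4.46%, against the background of 6.21%): 2 rose and 3 fell. The unadjusted p was under 0.05 for 23 of them (20.5%, against 16.4%), the groups did not overlap for 32 (28.6%, against 23.3%), and the median log2 fold change was 0.01. The fallers were Appl, the fly amyloid precursor homolog, at 2281 ± 50.7 and 1800 ± 106 CPM (log2 fold change −0.34, edgeR adjusted p = 0.0022), the katanin-like severing gene kat-60L1 at 44.3 ± 4.49 and 25.57 ± 4.61 CPM (−0.79, adjusted p = 0.0146), and pigs, a Gas2-like actin and microtubule linker, at 124.4 ± 8.29 and 79.47 ± 17.5 CPM (−0.65, adjusted p = 0.0261). The risers were Grip, a PDZ-domain adaptor whose mammalian homolog binds kinesin, at 58.25 ± 11.7 and 96.09 ± 19.5 CPM (0.72, adjusted p = 0.04), and Msp300, a nesprin, at 112.6 ± 31.0 and 188.0 ± 33.9 CPM (0.74, adjusted p = 0.0498). When each library was left out in turn, Appl kept its call in 6 of 6 fits. kat-60L1 lost it without control replicate 2 or 3 (adjusted p up to 0.0727), Grip (up to 0.169) and Msp300 (up to 0.206) without those or without knockdown replicate 1 or 3, and pigs (up to 0.119) without any library but knockdown replicate 2. Msp300 was also not called by DESeq2 (adjusted p = 0.0648) or with scaling by library size alone (adjusted p = 0.061).

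By list, edgeR called 0 of 9 tubulin and folding genes (3 at an unadjusted p under 0.05), 0 of 10 tubulin-modifying enzymes (1), 0 of 15 other kinesins (5), 0 of 7 other dynein chains (3), 0 of 15 dynactin and dynein regulators (2) and 0 of 19 gamma-tubulin and centrosome genes (1). Other lattice-binding and severing genes had 2 of 20 called, both lower, cargo adaptors 2 of 9, and formins and linkers 1 of 8. Over all tested features, edgeR called 6.21%, and 16.4% had an unadjusted p under 0.05. With lists this small, nothing is read from a list with 0 calls. DESeq2 and limma-voom each also called Tbcd, the kinesins Klp67A and CG14535, and Grip91 of the gamma-tubulin ring, and none of the tubulin-modifying, dynein chain or dynactin lists. The most abundant genes of these lists without a call included Ank2, a giant ankyrin that holds presynaptic microtubules, ctp, a dynein light chain, and the kinesin gene Klp67A. Ank2 was at 3169 and 3559 CPM, ctp at 843.5 and 733.2 CPM, and Klp67A at 56.12 and 75.28 CPM with an adjusted p of 0.0523. The tubulin folding gene Tbcd was at 46.3 and 65.12 CPM with an adjusted p of 0.0666. Of the most abundant genes of other lists, the tubulin-modifying enzyme gene TTLL5 was at 119.5 and 123.4 CPM, the dynein adaptor gene hook was at 129.8 and 131.8 CPM, and the centrosome gene cnn was at 113.7 and 108.1 CPM.

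**Figure D5:**
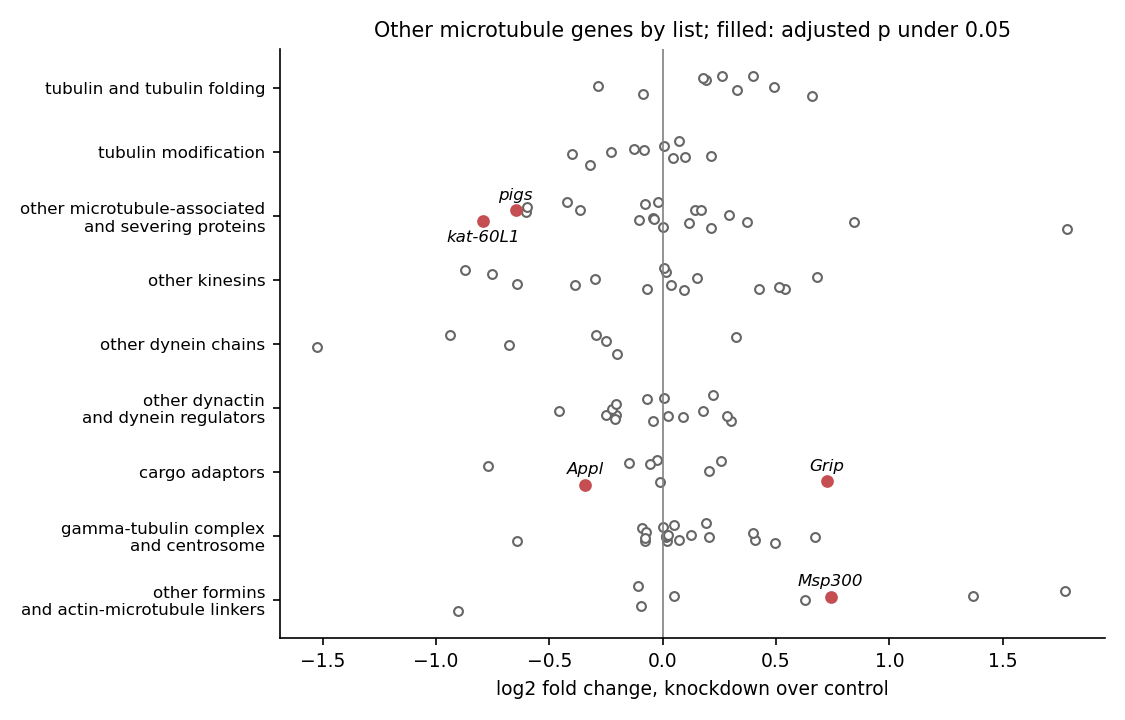
Log2 fold change (knockdown over control, horizontal axis) of the 112 further microtubule genes tested, 1 row per list, with vertical scatter only to separate points; filled points have an adjusted p under 0.05. The 5 filled points are pigs, kat-60L1 and Appl below 0 and Grip and Msp300 above 0.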

How the data were processed

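The authors deposited raw counts per FlyBase feature, 1 column for each of 6 libraries. STAR, DESeq2 and the build BDGP6 are named without versions in the submitters' processing notes. The counting program, annotation release and strand setting are not given in the sources used here, so reads of overlapping genes and near-identical copies may be split in unknown ways. SMART-Seq v4 amplifies full-length cDNA without molecular tags.

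Identifiers were matched to Ensembl 115 (BDGP6.54): 23851 features matched and 81 did not. In R 4.3.3, edgeR 4.0.16 kept 9932 features (filterByExpr, minimum count 10), with TMM scaling, the group as the term, a quasi-likelihood F test and Benjamini-Hochberg adjustment over all tested features. Across genes, the common coefficient of biological variation was 0.304 (median 0.175). An exact permutation test of 3 against 3 libraries can reach p = 0.1 at the lowest and was not used. Pairs of libraries within a group differed by more than sampling noise, so none was counted as a duplicate. Levels per kilobase use the union of annotated exons. Alternatives were DESeq2 1.42.0, limma-voom 3.58.1, other scalings and filters, a replicate block and leaving out each library. The procedure was also run on simulated counts, with no change or with changes larger than those of the called members. That run does not show how well smaller changes are found.

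The members and all gene lists were chosen with earlier results of these data known. Every member is named, together with each other listed gene past the threshold and the most abundant tested gene of each list.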

Additional observations from a re-analysis of the deposited data

How the results depend on the processing

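Jupiter, tau and futsch were called under all 13 alternatives, and 3 to 4 members were called in each, the added gene always being Dhc64C. Over all features, DESeq2 called 952 (381 higher, 571 lower) against 617, and leaving out each library gave 399 (without control replicate 2) to 556 calls. The further microtubule genes had 5 calls, against 8 with no filter, 9 with a minimum of 10 counts, 8 with DESeq2, 9 with limma-voom and 1 to 7 with a library left out (1, Appl, without control replicate 2 or 3, 3 without knockdown replicate 1 and 2 without knockdown replicate 3). The log2 fold change of Dhc64C ran from −0.59 to −0.36. Over all tested features, the deviations of same-numbered libraries were barely correlated (0.0557, −0.0118 and −0.03). With 3 libraries per group this cannot decide whether they were paired. With a replicate block there were 556 calls over all features, 4 among the members and 5 among the further genes, the adjusted p of Dhc64C was 0.00601 and that of the neuronal marker cpx 0.0735. Per coding length, alphaTub84B held 91.32% and 91.34% of the alpha-tubulin signal. Of 701 single-gene values under the alternatives, 28 lost and 6 gained a call, and 8 uncalled fold changes moved by more than their standard error. No value with a call in either fit reversed, while 38 values of 14 uncalled genes, whose log2 fold changes were at most 0.08 in size, took the opposite sign. The cause was not tested.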
